A study of Homo sapiens with 6 samples.

Results

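The 49 genes described here are abundant protein-coding genes whose mRNA was lower, but still well detected, after KLF5 silencing in SKOV3 cells. They were selected on the comparison itself: a protein-coding gene was taken when its mean normalized count in the control libraries was at least 200, when the mean in the silenced libraries lay between 25% and 50% of that mean, and when every silenced library was below every control library. KLF5 itself, HMGA2, RDH10, TWIST1, S100A4 and FBN1 were set aside, as were genes whose names start with COL, ZNF, SLC, KCN, KRT, CDH, PCDH, ITG, EPH, SEMA, KLF, ALDH or HIST. The table held 29185 genes, of which 16074 were protein-coding and 8914 of those reached the floor of 200. The numeric conditions were met by 62 genes, and 13 of these were dropped by name. Because the values chose the genes, their lower level is a description of the selection and is not used as evidence.

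SKOV3 is an established human ovarian adenocarcinoma cell line. Both groups were stable lines made with lentivirus from the pLKO.1-EGFP-Puro vector and selected with puromycin. The control group, sh-NC (3 libraries), carried a control hairpin, and the labels give its genotype as WT. The silenced group, sh-KLF5 (3 libraries), carried a hairpin against KLF5 and is labelled KLF5 knockdown; which hairpin it was is not given in the sources used here. Poly(A) RNA of each sample was sequenced, with 15852319 to 17543896 reads on genes per library. Nothing in the labels says that the libraries of a group came from separate cultures, so p-values measure only the spread between these samples.

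KLF5 is a zinc-finger transcription factor of the Krüppel-like family, which binds GC-rich and CACCC sequence elements near gene starts. It is known for its role in proliferating epithelia, where it acts on genes of growth, adhesion and differentiation. RNA-seq measures the steady amount of each mRNA, so genes lowered by loss of a factor can be its direct targets or lie many steps downstream.

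KLF5 (chr13:73054976-73077542) was measured at 4371, 4425 and 4494 in sh-NC and 1745, 1439.9 and 1436 in sh-KLF5. These values are normalized counts, which are reads divided by 1 factor per library. Its share left, 34.8% of the control mean, was inside the band that chose the 49 genes, and the groups did not overlap. Of the epithelial markers, KRT8, KRT18, ERBB2, PAX8, EPCAM and MUC1 were present in every library, KRT19 was at 16.5 or less and WT1 had no value. Their summed level was 25607 to 30362 in sh-NC and 11458 to 16347 in sh-KLF5, with most of it from KRT8. The markers did not move alike. From the sh-NC to the sh-KLF5 mean, KRT8 went from 21816 to 9817, KRT18 from 3696 to 2377 and MUC1 from 583 to 254. ERBB2 went from 1993 to 1593, PAX8 from 352 to 303, EPCAM from 120 to 118 and KRT19 from 6.19 to 11.6. The sum of 5 fibroblast markers was 1042 to 1483 in sh-NC and 397 to 753 in sh-KLF5, carried by COL3A1, LUM and DCN. COL1A1 was at 52.1 to 116 and PDGFRB at 18.7 or less. By group mean, COL3A1 went from 505 to 146 and LUM from 337 to 257, whereas COL1A1 went from 62.4 to 80.7. The 3 endothelial markers summed to 66.1 to 87.0 in sh-NC and 34.1 to 73.7 in sh-KLF5, almost all from PECAM1, and the leukocyte markers PTPRC and LYZ summed to at most 2.04 in any library. MUC1 and DCN belong to the 49 genes, and the part of other cell types in their levels was not tested. KRT8 and COL3A1 met the numeric conditions of the rule and were dropped by name. In bulk RNA, fewer cells that express a gene and less RNA per cell cannot be told apart.

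Sequence just before the gene start is shown for 6 of the genes, because the silenced factor belongs to a family that binds GC boxes and CACCC elements. MUC1 and MAOB have repeated GC boxes, and FSTL3 and MISP lie near each other on chromosome 19 with PALM between them. CRIP2 has repeated CACCC elements, and EMP1 has neither motif in its window. Each line gives 120 bases ending at the base before the RefSeq gene start (GRCh38.p14), 5′ to 3′ on the gene's strand. The ends of the MUC1, FSTL3 and EMP1 windows reach the first bases of the gene as GENCODE draws it. Capitals mark GGGCGGG or its reverse complement CCCGCCC, and CCACCC or its reverse complement GGGTGG.
MUC1: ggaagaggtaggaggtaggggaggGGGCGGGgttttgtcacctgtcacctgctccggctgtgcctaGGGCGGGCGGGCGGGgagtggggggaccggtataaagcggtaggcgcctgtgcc
MAOB: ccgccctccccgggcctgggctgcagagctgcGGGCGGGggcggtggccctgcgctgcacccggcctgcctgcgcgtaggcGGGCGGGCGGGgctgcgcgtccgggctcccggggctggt
FSTL3: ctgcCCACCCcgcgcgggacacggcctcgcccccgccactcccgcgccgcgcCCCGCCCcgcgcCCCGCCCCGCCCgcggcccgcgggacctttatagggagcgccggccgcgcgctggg
MISP: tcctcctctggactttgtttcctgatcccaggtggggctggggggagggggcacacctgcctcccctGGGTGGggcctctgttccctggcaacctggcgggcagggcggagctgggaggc
CRIP2: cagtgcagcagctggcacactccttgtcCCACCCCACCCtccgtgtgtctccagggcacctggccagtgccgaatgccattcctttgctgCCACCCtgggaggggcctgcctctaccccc
EMP1: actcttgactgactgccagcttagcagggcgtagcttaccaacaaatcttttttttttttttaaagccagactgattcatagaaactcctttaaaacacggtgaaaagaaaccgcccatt

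The windows lie at chr1:155192916-155193035 on the minus strand, chrX:43882451-43882570 on the minus strand, chr19:676272-676391 on the plus strand, chr19:750992-751111 on the plus strand, chr14:105472825-105472944 on the plus strand and chr12:13196606-13196725 on the plus strand. Of the 49 genes, 39 matched an entry of the RefSeq promoter table, and 250 bases before the start were searched on both strands, where a CACCC element can overlap a GC box. Among those not matched were WARS, TRIM29, PPL, MN1, NEFL, PKP2, DCN, PALM and ERBB3. A GC box was found in 18 of the 39 (46.2%), against 54.9% of the 7214 other abundant genes that matched and 31.4% of all 27305 promoters in the table. A CCACCC element was also found in 18 (46.2%), against 33.9% of the other abundant genes and 30.4% of all promoters. Both motifs stood together in 11 (28.2%), against 20.2% and 12.5%. The median GC content of the searched windows was 64.0% for the 39 matched genes and 65.6% for the other abundant genes that matched. A match says that these letters are present in the window and is not a measured binding site.

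The share left, which is the sh-KLF5 mean as a percentage of the sh-NC mean, ran from 27.5% (MAOB) to 49.97% (MARCOL) with a median of 42.2%. Of the 49 genes, 5 kept under 30%, 27 kept between 30% and 45%, and 17 kept over 45%. Over all 8914 abundant protein-coding genes the median share was 100.9%, and 6915 of them lay between 80% and 125%. A share of 10% to 25% was left by 11 genes and under 10% by 19, so the 63 genes in the band from 25% to 50% outnumbered the more deeply lowered ones. The 49 genes together made up 0.526% of all counts of the control libraries and 0.219% of those of the silenced ones, and PGK1 alone carried 32.6% of their summed control counts.

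**Figure D1:**
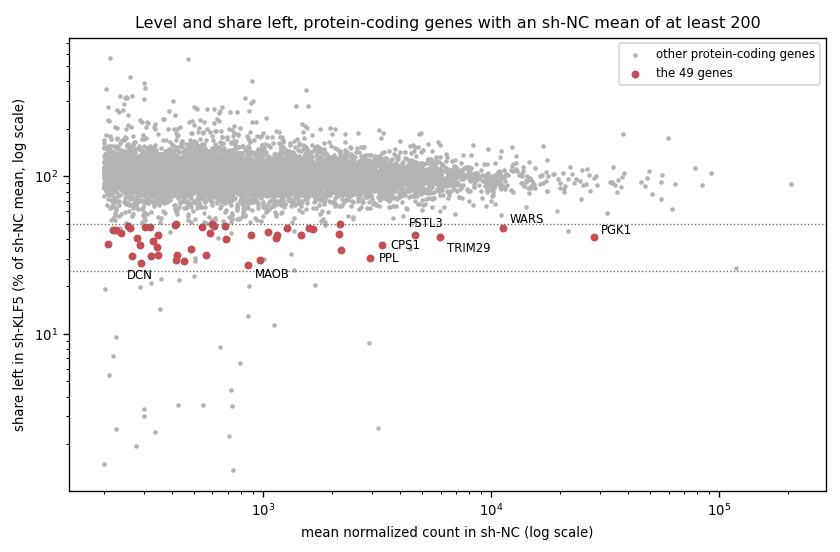
Share left in sh-KLF5 (percent of the sh-NC mean, log scale) against the mean normalized count in sh-NC (log scale) for protein-coding genes with an sh-NC mean of at least 200; red points are the 49 genes, grey points all others, and dotted lines mark 25% and 50%. PGK1 and WARS have the highest counts of the red points, and the grey points between the lines are the 13 genes dropped by name and EIF3CL.

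In limma's fit on log2(normalized count + 1) across 15803 genes, 48 of the 49 genes were called lower (Benjamini-Hochberg adjusted p under 0.05 and log2 fold change below -1), beside 3.37% of all tested genes. Nothing is read from this count, since the same contrast chose the genes. Separation of the groups, which the rule required of all 49, was found for 15.9% of all tested genes in the same direction, and 1.9% of tested genes were called higher. The fitted log2 fold changes ran from -1.86 to -1.01 with a median of -1.26, and the median over all tested genes was -0.0023. For comparison in the other direction, 112 protein-coding genes with an sh-KLF5 mean of at least 200 stood between 2 and 4 times their control mean with no overlap of the groups. No names were dropped from that count, so its counterpart is the 62 lowered genes rather than the 49. With the floor of 200 on the control mean instead, 71 such genes rose.

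Of the genes, 8 are enzymes, with a median share left of 41.6%. PGK1 (chrX:77910739-78129296), the glycolytic kinase that makes ATP from 1,3-bisphosphoglycerate, had the highest counts, at 25769, 26678 and 32430.5 in sh-NC and 11372, 11026 and 12373 in sh-KLF5. Per kilobase of exon it was also the highest of the 49 genes, whose control means ranged from 16.8 (PSD4) to 5133 normalized counts per kilobase with a median of 95.5, against 164 for other abundant genes. Its highest silenced library was at 48.0% of its lowest control library, and 41.0% was left (log2 fold change -1.28 ± 0.12, SE). WARS (chr14:100333788-100376805), which charges tRNA with tryptophan, was at 11354, 11248 and 11261 in sh-NC and 5103, 5773 and 4968 in sh-KLF5. Its 3 control values had a coefficient of variation (CV, the SD as a percentage of the mean) of 0.515%, the smallest of the 49 genes, and 46.8% was left. CPS1 (chr2:210477682-210679107), the mitochondrial synthetase at the entry of the urea cycle, was at 3388, 3379 and 3249 in sh-NC and 1340.3, 1144 and 1167 in sh-KLF5. Libraries of each group were close together, and 36.5% was left.

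MAOB (chrX:43766611-43882447), a monoamine-degrading oxidase of the outer mitochondrial membrane, had the smallest share left of all 49 genes. It was at 805, 841 and 941 in sh-NC and 214, 267 and 232 in sh-KLF5, leaving 27.5% (log2 fold change -1.86 ± 0.13, SE). PIGS (chr17:28553383-28571872), a subunit of the transamidase that attaches GPI anchors, kept 40.7%, and the imprinted gene MEST (chr7:130486171-130506465) kept 42.3%. CPT1A (chr11:68754620-68844410), which passes long-chain fatty acids into mitochondria, was the exception to the even lowering. Its control libraries were at 1323, 1475 and 1602, and its silenced libraries at 351, 429.8 and 1079. The third silenced library held more than 2 times as much as either of the others while still below every control, so the CV reached 64.5%. CPT1A was the 1 gene that was not called, with a log2 fold change of -1.42 ± 0.42 (SE) and an adjusted p of 0.090 in limma with Benjamini-Hochberg adjustment. Without that library 26.6% was left and the adjusted p in limma was 1.8e-07. Nothing is read from that p-value, since the same contrast chose the gene and the library left out was the discordant one.

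The 4 genes of cell junctions and the epithelial surface had the lowest median share of any role, 32.0%. PPL (chr16:4882507-4960741), the desmosome-associated plakin periplakin, was at 2834, 2908 and 3125 in sh-NC and 704, 1032 and 933 in sh-KLF5, leaving 30.1%. EMP1 (chr12:13196716-13219939), a tetraspan epithelial membrane protein, was at 2544, 2005 and 2047 in sh-NC and 691, 743 and 802 in sh-KLF5, leaving 33.9%. PKP2 (chr12:32790745-32896840), the desmosomal plaque protein plakophilin 2, was at 435, 387 and 417 in sh-NC and 124, 128 and 113 in sh-KLF5. Among the 49 genes PKP2 had the widest gap between groups, with its highest silenced library at 33.1% of its lowest control library. MUC1 (chr1:155185824-155192916), the transmembrane mucin of glandular epithelium whose upstream window holds 4 GC boxes, some overlapping, was at 559.6, 597 and 592 in sh-NC and 215, 284 and 264 in sh-KLF5. It kept 43.6%, the largest share in this role, and its first silenced library was the lowest.

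The 8 cytoskeletal genes kept a median of 39.8%. PDLIM1 (chr10:95237572-95291024), an actin-associated PDZ and LIM domain protein, was at 1029.8, 1009 and 1100.3 in sh-NC and 461, 487 and 443 in sh-KLF5. SYNE1 (chr6:152121684-152637801), the giant nesprin that ties the nucleus to the cytoskeleton, was at 962, 1087 and 859 in sh-NC and 245, 284 and 332 in sh-KLF5, leaving 29.6%. FLNC (chr7:128830377-128859274), an actin-crosslinking filamin, was at 632, 523 and 526 in sh-NC and 146, 143 and 242 in sh-KLF5. In FLNC the third silenced library was well above the other 2, and the mean share left was 31.5%. MAP1A (chr15:43510958-43531620), a microtubule-associated protein, was at 388, 418 and 447 in sh-NC and 61.2, 154 and 178 in sh-KLF5. Its first silenced library held less than 50% of the others, and the fitted log2 fold change of -1.80 ± 0.32 had the second largest SE of the 49 genes. NEFL (chr8:24950955-24957110), the neurofilament light chain, was at 398, 390.2 and 451 in sh-NC and 202, 178 and 235 in sh-KLF5 and kept 49.5%. The remaining members were the LIM protein CRIP2 (chr14:105472962-105480170), with 39.0% left, the membrane-bound paralemmin PALM (chr19:708939-748329), with 40.6%, and the microvillar actin bundler PLS1 (chr3:142596387-142713664), with 43.6%.

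The 8 transcription regulators kept a median of 38.4%. TRIM29 (chr11:120111275-120185529), a tripartite-motif protein of stratified epithelia, was at 5897, 5604 and 6463 in sh-NC and 2058, 2728 and 2559 in sh-KLF5. MDFIC (chr7:114922154-115019202), a MyoD family inhibitor domain protein, was at 1595, 1722 and 1667 in sh-NC and 963, 693 and 658 in sh-KLF5. The shares left were 40.9% and 46.4%, and the genes differed in which silenced library stood apart: the first was lowest for TRIM29 and highest for MDFIC. NR4A1 (chr12:52022832-52059507), an orphan nuclear receptor induced early by many stimuli, was at 661, 727 and 679 in sh-NC and 275, 309 and 248 in sh-KLF5. MN1 (chr22:27748277-27801498), a transcription co-regulator, was at 379, 476 and 496 in sh-NC and 138, 141 and 113 in sh-KLF5. GLI2 (chr2:120735623-120992653), an effector of Hedgehog signalling, was at 304, 276 and 219.6 in sh-NC and 86.6, 87.3 and 76.2 in sh-KLF5. MN1 and GLI2 were near the lower end of the range, with 29.0% and 31.3% left, and NR4A1 kept 40.2%.

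The role was completed by 3 homeodomain or paired-box factors. DLX1 (chr2:172084740-172089677) was at 402, 287 and 350.2 in sh-NC and 106, 159 and 173 in sh-KLF5. DLX2 (chr2:172099439-172102900) was at 407, 253 and 372 in sh-NC and 99.9, 101 and 165 in sh-KLF5. PAX9 (chr14:36657568-36679715), known from tooth, thymus and oesophageal epithelium, was at 326, 306 and 231 in sh-NC and 108, 98.0 and 109 in sh-KLF5. The shares left were 42.2%, 35.5% and 36.5%, and both DLX genes were lowest in the first silenced library and highest in the third.

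The 6 genes of secreted proteins and matrix kept a median of 44.98%. FSTL3 (chr19:676365-683399), a secreted antagonist of activin and myostatin, was at 4529, 4267 and 5139.8 in sh-NC and 1949.8, 1844 and 2092 in sh-KLF5. Per kilobase of exon it was the third highest of the 49 genes, at a control mean of 1515, with 42.2% left. DCN (chr12:91140484-91183123), the small matrix proteoglycan decorin, was at 398, 234 and 241 in sh-NC and 113, 75.7 and 58.2 in sh-KLF5. The share left was 28.3%. The first library of each group was the highest, and DCN had the largest control CV of the 49 genes, 31.9%. LGALS3BP (chr17:78971238-78980109), a secreted galectin-binding glycoprotein, was at 331, 304 and 328 in sh-NC and 114, 111 and 76.2 in sh-KLF5, leaving 31.3%. MARCOL (chr5:148221650-148243580) was at 540.0, 691 and 557 in sh-NC and 161, 349 and 383 in sh-KLF5. With 49.97% left it stood at the upper limit of the rule, and its first silenced library was below 50% of the other 2. PROS1 (chr3:93873033-93980003), the anticoagulant protein S, kept 47.7%, and ADAMTSL4 (chr1:150549369-150560937), a protein of fibrillin microfibrils, kept 48.0%.

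The 5 genes of receptors and other membrane proteins kept a median of 45.8%. LRRC8B (chr1:89524836-89597864), a subunit of volume-regulated anion channels, was at 618, 682 and 534 in sh-NC and 317, 271 and 296 in sh-KLF5. EDNRB (chr13:77895481-77975529), the endothelin receptor type B, was at 493, 611 and 519 in sh-NC and 333, 217 and 227 in sh-KLF5. The first silenced library was the highest of its group in both, and the shares left were 48.2% and 47.9%. TENM3 (chr4:182143987-182803024), a teneurin adhesion protein, was at 427, 303 and 306 in sh-NC and 78.5, 123 and 126 in sh-KLF5, leaving 31.7%. ERBB3 (chr12:56076799-56103505), the neuregulin receptor that signals with ERBB2, was at 196, 228 and 204 in sh-NC and 58.1, 84.4 and 90.2 in sh-KLF5. CSPG4 (chr15:75674322-75712848), the membrane proteoglycan NG2, was at 231, 252 and 176 in sh-NC and 58.1, 123 and 120.3 in sh-KLF5. ERBB3 kept 37.1% and CSPG4 45.8%; their control means were the nearest to the floor of the rule, and in both the first silenced library was the lowest.

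The 7 genes of intracellular signalling and trafficking kept a median of 47.2%, the highest of the roles. S100A10 (chr1:151982915-151994390), the partner of annexin A2, was at 2145, 1958 and 2449 in sh-NC and 1083, 1155 and 1009 in sh-KLF5, leaving 49.6%. AKAP12 (chr6:151239999-151358557), a scaffold for protein kinase A, was at 1531, 1629.8 and 1612 in sh-NC and 567, 659 and 1024 in sh-KLF5. The third silenced library held AKAP12 well above the other 2, and 47.1% was left on average. MAP2K6 (chr17:69414698-69553861), the kinase that activates p38, was at 485, 497 and 469 in sh-NC and 174, 182 and 145 in sh-KLF5, and with 34.6% left it stood apart from the rest of its role. The other 4 were the exchange-factor family member ARFGEF3 (chr6:138161921-138344663), the calmodulin-binding NRGN (chr11:124739846-124747210), the chaperone CLGN (chr4:140388455-140427968) and the ARF6 exchange factor PSD4 (chr2:113157325-113209396), which kept 48.9%, 47.6%, 47.2% and 45.7%.

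The 3 genes of cell division kept a median of 46.8%. CDC23 (chr5:138187648-138213343), a subunit of the anaphase-promoting complex, was at 1274, 1306 and 1259 in sh-NC and 637, 562 and 597 in sh-KLF5. MISP (chr19:751126-764318), an actin-bundling protein that positions the mitotic spindle, was at 1047, 1068 and 1324 in sh-NC and 399, 542 and 520.4 in sh-KLF5. CDC45 (chr22:19479459-19520612), part of the replicative helicase, was at 568, 749.9 and 729 in sh-NC and 290.5, 327 and 373 in sh-KLF5. The groups were apart for all 3, with 46.8%, 42.5% and 48.4% left.

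**Figure D2:**
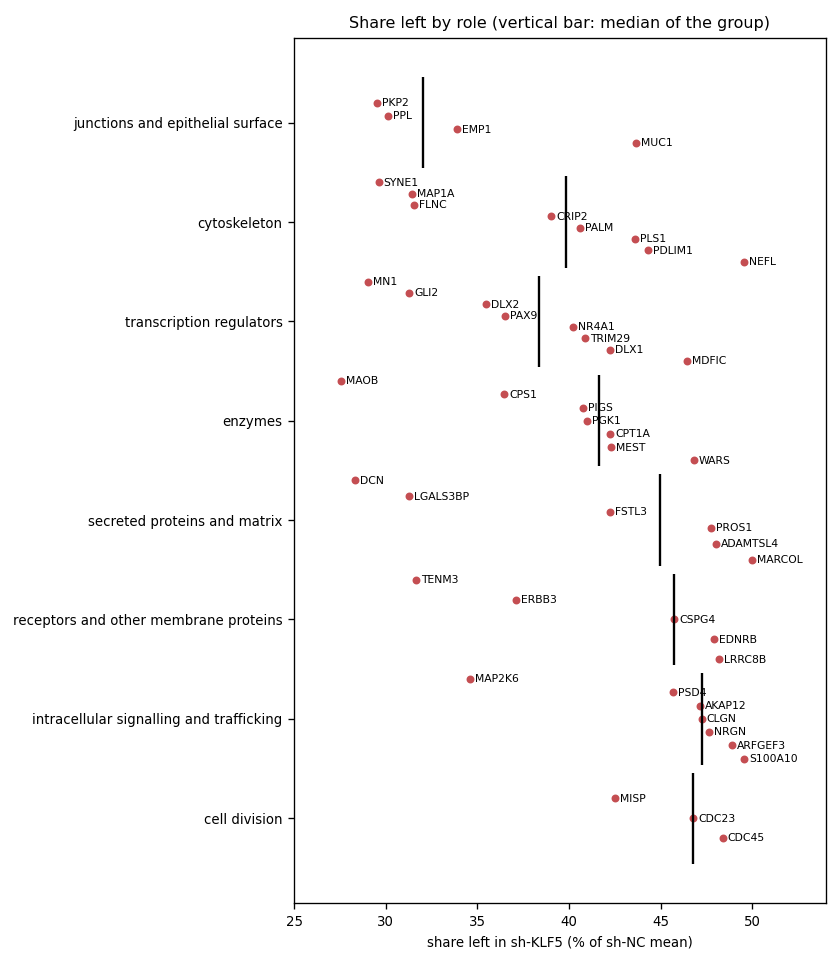
Share left in sh-KLF5 (percent of the sh-NC mean) for 48 of the 49 genes, 1 point a gene, grouped by a role assigned by hand; vertical bars are medians of all genes of a role. Genes of junctions and the epithelial surface have the lowest median (32.0%) and those of signalling and trafficking the highest (47.2%). The enzymes alone run from 27.5% (MAOB) to 46.8% (WARS). Genes dropped by name, among them keratins and a cadherin, are not in these medians.

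Spread within a group was larger in the silenced libraries. The median CV was 9.65% for the control and 12.5% for the silenced libraries, and 34 of the 49 genes had the larger CV in sh-KLF5; for other abundant protein-coding genes the medians were 6.84% and 12.0%. The CV in sh-KLF5 exceeded 30% for 8 genes, namely CPT1A, MAP1A, MARCOL, CSPG4, DCN, AKAP12, FLNC and DLX2. Measured as the highest silenced library over the lowest control library, the closest approach of the groups was 33.1% for PKP2, 51.1% at the median and 81.5% for CPT1A. In 32 of the 49 genes every silenced library was below 50% of the control mean. Reads behind these values ran from 57 to 30564 per gene and library.

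The silenced libraries did not deviate in a single direction. The first was the lowest of its group for 22 of the 49 genes (44.9%) and the highest for 13 (26.5%), against 39.4% and 44.2% of other abundant genes. The third was the highest for 19 (38.8%), against 33.4%. MAP1A, MARCOL, CSPG4, CPT1A, TENM3, DLX1 and ERBB3 were among the genes low in the first library, whereas DCN, EDNRB, MDFIC, NRGN and CLGN were high in it. LGALS3BP was instead low in the third, at 76.2 against 114 and 111. KLF5 itself was highest in the first silenced library.

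**Figure D3:**
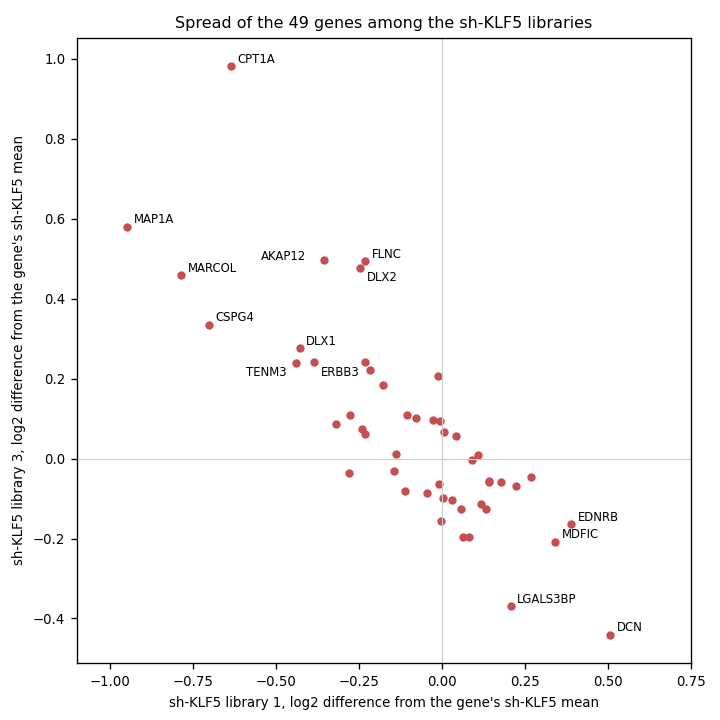
Log2 difference of sh-KLF5 library 3 (vertical) and library 1 (horizontal) from the gene's sh-KLF5 mean, 1 point for each of the 49 genes. Differences of the 3 libraries sum to 0, so a slant downward is built in; CPT1A stands highest in library 3, MAP1A lowest in library 1 and DCN highest in library 1.

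**Figure D4:**
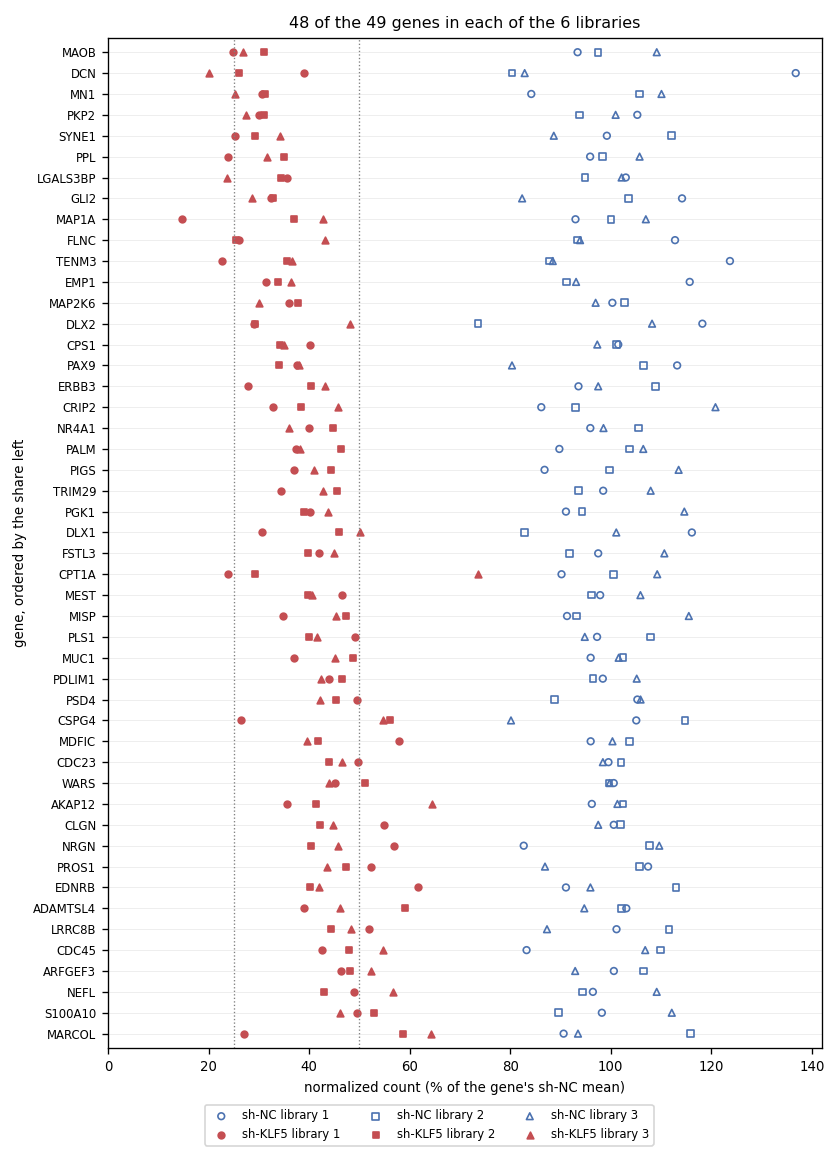
Normalized count of 48 of the 49 genes in each library as a percentage of the gene's sh-NC mean, ordered by the share left; open blue symbols are sh-NC, filled red symbols sh-KLF5, and dotted lines mark 25% and 50%. The red and blue symbols are apart in every row, as the selection required, and CPT1A has the closest approach (81.5%).

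Genes lay close on both sides of the floor and of the upper limit of the rule. Just above the floor of 200 were ERBB3, CSPG4 and PSD4, with sh-NC means of 209, 219.8 and 226. Just below it were the lipid transporter ABCA3, AIF1L and the interferon-induced MX2, with means of 199, 190.1 and 186 and shares left of 38.9%, 32.6% and 44.7%. At the lower limit of the share, MAOB, DCN and MN1 were inside, and the cell-cycle inhibitor CDKN1C (23.4%), PRSS16 (22.2%) and the antiviral synthetase OAS1 (21.1%) were outside. At the upper limit, MARCOL, S100A10 and NEFL were inside, and ISCA1 (50.2%), PLTP (50.8%) and ERMP1 (51.2%) were outside. EIF3CL alone met the floor and the share but not the separation, with 87.5, 73.9 and 1341 in sh-NC and 308, 51.4 and 95.3 in sh-KLF5. The 13 genes dropped by name ran from KRT17, with a control mean of 118787 and 26.1% left, to HIST1H2BH, with a control mean of 237 and 47.1% left.

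FSTL3, PALM and MISP lie next to one another on the short arm of chromosome 19, within chr19:676365-764318 (GRCh38). Position was not part of the selection. PALM was at 252, 292 and 299 in sh-NC and 105, 130.0 and 107 in sh-KLF5, and the log2 fold changes of the 3 genes were -1.24 ± 0.12, -1.30 ± 0.17 and -1.24 ± 0.14 (SE). RNF126, on the near side of FSTL3, was at 871, 878 and 992 in sh-NC and 629, 824 and 941 in sh-KLF5, with a log2 fold change of -0.21 and an adjusted p of 0.382 in limma with Benjamini-Hochberg adjustment. On the far side, the lincRNA LINC01836 was at 115, 128 and 128 in sh-NC and 86.6, 68.9 and 78.2 in sh-KLF5 (log2 fold change -0.67, limma adjusted p 0.0323). PTBP1, a splicing regulator, was at 10337, 10183 and 11267 in sh-NC and 8467, 10323 and 10976 in sh-KLF5 (log2 fold change -0.10, limma adjusted p 0.648). Beyond PTBP1, PLPPR3 (chr19:812488-821977) was called lower, at 46.6, 34.5 and 64.7 in sh-NC and 4.08, 3.88 and 3.01 in sh-KLF5, with a log2 fold change of -3.38 and an adjusted p of 3.76e-05 in limma. The lower genes were thus not an unbroken block, since PTBP1 lies between MISP and PLPPR3 with overlapping groups.

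DLX1 and DLX2 lie 9762 bases apart on chromosome 2 and point in opposite directions. Their neighbour METAP1D, a methionine aminopeptidase, went from a mean of 217 to 140.0 (log2 fold change -0.62, limma adjusted p 0.0245), HAT1 from 1701 to 1621 (-0.07, adjusted p 0.745) and SLC25A12 from 440.1 to 473 (0.10, adjusted p 0.688). Genes that share exonic bases with one of the 49 genes were left out of the count of its neighbours. Within 100000 bases of any of the 49 genes there were then 4 pairs of them and 160 other tested genes. Of these 160, 7 (4.38%) were called lower and 1 (0.625%) higher. Around other abundant genes these shares were 2.45% and 1.51% of 13287 neighbours. There, genes with shared exonic bases were kept, so the counts are not fully alike. The 7 were PLPPR3, TESMIN next to CPT1A, ALDOC next to PIGS, AL132857.2 next to PAX9, AL139002.1 overlapping EDNRB, AL157871.2 overlapping WARS, and GSG1. GSG1 lies 93033 bases from EMP1, and FAM234B, nearer to EMP1 at 54195 bases, was not called. Apart from these loci the 49 genes were scattered, with 5 each on chromosomes 2 and 12, 4 on chromosome 1 and none on chromosomes 9, 18, 20 or 21.

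**Figure D5:**
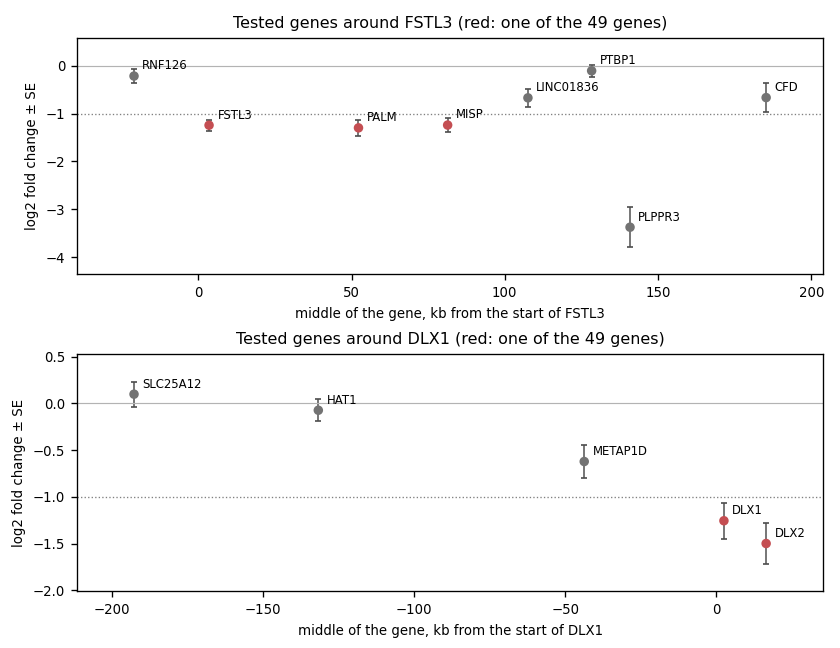
Limma log2 fold change of sh-KLF5 over sh-NC with its SE (vertical) for tested genes around FSTL3 and around DLX1, at the distance of the gene's middle from the start of FSTL3 or DLX1 in kilobases (horizontal); red points belong to the 49 genes. FSTL3, PALM and MISP sit together near -1.2 to -1.3, PLPPR3 at -3.38, and PTBP1 between them at -0.10.

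Some values share exonic sequence with another gene, and the strand setting of the counting is not given in the sources used here. Exonic bases were shared by 19 of the 49 genes, and over 10% of the exonic length by 5 of them, WARS, MEST, NR4A1, NEFL and ADAMTSL4. The partners with a row were low beside WARS, NR4A1 and ADAMTSL4, with at most 169 reads in any library, and MEST also shared 228 bases with COPG2, which stood at 1299 to 1761. TENM3 shared 115 bases with the antisense RNA AC098864.1, which was at 43.8, 37.4 and 26.5 in sh-NC and 3.06, 0.97 and 0 in sh-KLF5. The processed pseudogene PGK1P2 of PGK1 had at most 2 reads in a library, and how reads that match both were counted was not tested.

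The 49 genes touched 3 gene lists of adhesion, signalling and development. Of 53 tested homeobox and paired-box genes outside the HOX clusters, 8 were called lower and 1 higher, beside 3.37% and 1.9% of all tested genes, and the 8 included DLX1, DLX2 and PAX9, which has a paired domain and no homeodomain. The other 5 were SATB1 (log2 fold change -4.36), LHX8, MEIS1 (-1.43), SIX3 (-2.17) and DLX6 (-1.25), and the 1 higher was NKX1-2 (2.69). LHX8 was listed at 0 in every silenced library, from 80.1, 46.3 and 60.5 in sh-NC, which makes it at least 20.8-fold lower against a floor of 3 reads per library. The median log2 fold change of the list was -0.15. Of 33 tested genes of the focal adhesion plaque, FLNC and PDLIM1 were lower and PDLIM4 was higher (1.03), with a median of 0.09. Of 39 tested genes of cyclic nucleotide signalling, 4 were lower, namely AKAP12, PRKG1 (-3.48), PDE4A (-2.81) and ADCY1 (-1.69), and the median was 0.09. The calls of DLX1, DLX2, PAX9, FLNC, PDLIM1 and AKAP12 follow from the selection, which used the same contrast. Nothing is read from their part in these counts.

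None of the 49 genes fell in the other lists. Over all tested genes, 3.37% were called lower and 1.9% higher. Among 14 tested receptor-type tyrosine phosphatases, 3 were lower and 1 higher, with a median of 0.37. The 3 lower were PTPRD, PTPRB and PTPRH, with low control means of 23.7, 84.6 and 19.2, and the 1 higher was PTPRE, at 367. Among 20 adhesion molecules of the immunoglobulin superfamily, 2 were lower and 1 higher, with a median of -0.18. The immunoglobulin superfamily had the lowest median of these lists, and the phosphatases and the tumour necrosis factor family the highest. Among 24 ligands and receptors of the tumour necrosis factor family, 1 was lower and 2 higher, with a median of 0.38. Among 20 genes of heparan sulfate proteoglycans 1 was lower and 1 higher (median 0.17), among 41 mucin-type O-glycan and sialic acid transferases 1 was lower (median 0.09), and among 22 tetraspanins 1 was higher (median 0.19). Of 8 tested caveolar genes, 0 passed both thresholds in limma, edgeR or DESeq2, with 3 at an unadjusted p under 0.05 in each (median -0.0035). Among them CAV1, which encodes the caveolar coat protein caveolin 1, had an adjusted p of 0.00086 in limma with Benjamini-Hochberg adjustment and missed the fold threshold, at a log2 fold change of -0.76 (CAV1 1953, 1779 and 2053 in sh-NC and 1261, 933 and 1247 in sh-KLF5).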

How the data were processed

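RNA-seq libraries of SKOV3 cells with a control hairpin (sh-NC, 3 libraries) and with KLF5 silenced (sh-KLF5, 3 libraries) were grouped by their labels. The members and the gene lists were chosen with earlier results of these data known, and roles were assigned by hand. Per the submitters' processing notes, reads were aligned to hg38 and counted with HISAT2 2.0.5, featureCounts 1.5.0-p3 and DESeq2 1.20.0. The authors deposited a normalized signal for each gene and library, which is the read count divided by 1 factor per library. The same table holds their own group means, fold changes and p-values, which were not used.

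Dividing by the value of 1 read gave whole reads for 100% of values (within 1e-06), with totals of 15852319 to 17543896, so that 3 reads equal 0.171 to 0.189 CPM. Floors in reads cover counting error only, whereas each SE comes from limma's fit and reflects the spread between libraries. Libraries of a group differed by more than sampling noise (chi-square per degree of freedom 4.66 to 34.3).

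Differences between the groups were fitted in R 4.3.3 by limma 3.58.1, with trend and robust settings and two-sided p-values, on log2(normalized count + 1), for 15803 genes kept by filterByExpr at a minimum count of 10, with Benjamini-Hochberg adjustment over all of them; fold changes are on that scale. A call required an adjusted p under 0.05 and a log2 fold change beyond 1. Scripts were tested on simulated data. Alternatives were edgeR 4.0.16 and DESeq2 1.42.0 on the recovered reads, other scalings, filters, pseudocounts and limits of the rule, the replicate block, and leaving out each library. Same-numbered libraries were not treated as pairs.

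Coordinates and overlaps are from GENCODE release 29 on GRCh38, which matched 29180 of the 29185 genes, and promoters from RefSeq GRCh38.p14. Named were the 10 members with the highest control mean, the 5 with the lowest and the 5 with the highest share left, the 3 highest in each role, those in a list, KLF5, the genes at each limit of the rule and genes sharing exons. Every other member, neighbour and list gene was named after its values were seen. The values of 1 member and of 1 gene list are not reported here; both are in the counts. Plots come from matplotlib 3.10.9 under Python 3.11.15.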

Additional observations from a re-analysis of the deposited data

How the results depend on the processing

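The 49 genes depend on where the limits of the rule are set. A floor of 100 gave 82 genes and a floor of 400 gave 32, a share from 20% to 60% gave 129, and a share from 30% to 45% gave 27. Under CPM and under TMM scaling 48 genes were chosen, with MARCOL lost in both, and without the condition on overlap 50 were chosen. Leaving out 1 library gave 46 to 59 genes, and 35 of the 49 were chosen each time. The number called lower was 48 or 49 under the other tools, scalings, pseudocounts and filters, and 42 to 47 without 1 library, with 36 called each time. Calls were lost by CDC45, LRRC8B, EDNRB, ARFGEF3, S100A10, NEFL, NRGN, AKAP12, ADAMTSL4, CSPG4 and PROS1, each with a log2 fold change between -1 and -0.83 and an adjusted p under 0.05 in limma. MARCOL lost it without the first or second sh-NC library (adjusted p 0.0588 and 0.0640 in limma) and was at -0.69 without the first sh-KLF5 library. CPT1A was called by limma on CPM (adjusted p 0.0450), with the replicate block (0.0213) and without the third sh-KLF5 library (1.8e-07). That library held its discordant value, so nothing is read from the last call. The median log2 fold change lay between -1.32 and -1.20 in all fits, and no gene reversed. With the replicate block, all 49 were called lower, as were 567 of all tested genes. After each gene's group mean was subtracted, the deviations of same-numbered libraries correlated at 0.033 to 0.059. Of all tested genes 533 were called lower, 528 by edgeR and 528 by DESeq2 on the recovered reads, 811 when nothing was filtered, and 231 (beside 241 higher) when each library had to hold 10 reads or more, which took the share of lower calls from 63.9% to 48.9%. Leaving out 1 library gave 461 to 620.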

Other observations

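Genes that are not protein-coding were outside the selection, and 4 of them met its numeric conditions. KRT7-AS, antisense to a keratin gene, was at 534, 492 and 493 in sh-NC and 196, 223 and 305 in sh-KLF5, with 47.6% left. AC245041.1 was at 317, 313 and 276 in sh-NC and 82.6, 148 and 147 in sh-KLF5, with 41.7% left and its first silenced library the lowest, as for MARCOL and MAP1A. The lincRNA AL021807.1 kept 48.95% and the pseudogene LRRC37A4P kept 46.6%. None of the 4 overlapped between the groups, as the conditions required.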
